A study of Mus musculus with 18 samples.

Results

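The Gm cluster on mouse chromosome 12 described here holds 4 genes, Gm49379, Gm21863, Gm40853 and Gm49381, out of 54446 genes with a count in each library. They were chosen by symbol and by position between 19.8 and 20.1 Mb of chromosome 12 (mm10, the GRCm38 assembly), with their reads in these libraries already known. The value that drew attention to them was a count near 0 in every Tet2-KO library and well above 0 in every WT library, so that difference is described below and not tested. All 4 passed the filter on low counts, and they did so through the WT libraries.

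The libraries hold nascent RNA of mouse embryonic stem (mES) cells that were wild type (WT) or lacked Tet2 on both alleles (Tet2-KO). All cells, WT and Tet2-KO, grew in serum with LIF, CHIR99021 and PD0325901, were passaged on gelatin to remove feeder cells, and were given 1 mM 5-ethynyl uridine (EU), a uridine analogue that is built into RNA as it is made, for 10, 20 or 40 min. Labelled RNA was biotinylated and pulled down, and 3 libraries were made for each genotype and time, 18 in all, with ERCC RNA as an external spike-in. Per the study's methods, ERCC RNA went into the RNA after the pull-down, scaled to how much total RNA each sample held. Values per ERCC read are thus not per cell, and they do not correct for the yield of the pull-down. A single WT line and a single Tet2-KO line were used and the replicates are dishes of these lines, so the knockout and any other difference between the lines cannot be told apart, and p-values measure the spread between dishes.

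Pseudogenes are copies of genes that have mostly lost the ability to make the original protein. A processed pseudogene arises when a messenger RNA is copied back into DNA, and an unprocessed one when a stretch of chromosome is duplicated. The young copies of a family can differ from the parent gene at few bases, so a short read may match several of them, and the proximal end of mouse chromosome 12 is rich in such repeats. Asap2, parent of the sequence in 3 of the genes, encodes an ArfGAP that acts in membrane traffic, and Hpcal1, which the other gene resembles, encodes a calcium sensor of the hippocalcin family.

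Gm49379 (ENSMUSG00000113077, chromosome 12, 19882154 to 19882320, minus strand) is annotated as a processed pseudogene with 1 exon of 167 bases. Gm21863 (ENSMUSG00000095470, 19954505 to 19954840, plus strand) is annotated as protein coding, with 1 exon of 336 bases whose reading frame ends in a stop at codon 112. Gm40853 (ENSMUSG00000113287, 20002777 to 20008396, plus strand) is an unprocessed pseudogene with 582 exonic bases in a span of 5620 bases. Gm49381 (ENSMUSG00000113901, 20071882 to 20072011, plus strand) is a processed pseudogene of 130 bases. The 4 genes spread over 189.9 kb and none of them overlaps another annotated gene.

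The sequences show what the 4 genes are copies of, which bears on how reads can be assigned to them. Over the first 127 coding bases of Asap2 (chromosome 12, 20990459 to 21270171, plus strand), Gm21863 and Gm49379 each differed at 5 bases and Gm49381 at 6. They are printed 5′ to 3′ on the strand of each gene from the GENCODE M21 transcripts, with capitals at the bases that differ from Asap2.
Asap2: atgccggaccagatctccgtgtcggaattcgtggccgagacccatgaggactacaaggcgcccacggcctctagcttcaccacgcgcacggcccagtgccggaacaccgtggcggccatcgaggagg
Gm49379: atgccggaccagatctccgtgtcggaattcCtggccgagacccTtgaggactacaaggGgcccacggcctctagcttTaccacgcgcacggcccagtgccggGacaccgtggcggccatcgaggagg
Gm21863: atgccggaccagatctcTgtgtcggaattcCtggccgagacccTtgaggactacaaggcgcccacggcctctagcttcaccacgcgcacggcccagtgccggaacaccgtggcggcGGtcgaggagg
Gm49381: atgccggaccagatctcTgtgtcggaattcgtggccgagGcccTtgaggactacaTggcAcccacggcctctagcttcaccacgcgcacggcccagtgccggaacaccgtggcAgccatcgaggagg

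The identity to Asap2 over these bases was 96.1% for Gm49379 and Gm21863 and 95.3% for Gm49381. The 3 genes held 12 different changes from Asap2 in all, counted from 1 at the A of its start codon with the base of Asap2 written first. A44T was in all 3 genes, C18T was shared by Gm21863 and Gm49381, G31C was shared by Gm49379 and Gm21863, and the other 9 were each in a single gene. Against 24 other copies that aligned to this stretch without a gap and with 12 or fewer differences, A44T was in 21, C18T in 2 and G31C in 0. The 3 genes thus carry the base that most copies have at position 44, and Gm49379 and Gm21863 carry a base at position 31 that none of the 24 had. Between members, identity was 93.2% over 162 bases for Gm49379 and Gm21863, 94.6% over 130 bases for Gm21863 and Gm49381, and 93.1% over 130 bases for Gm49379 and Gm49381.

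Gm40853 holds another sequence, which also occurs in an annotated Asap2 transcript, at 93.6% identity over 487 bases. Gm40853 aligned to 576 bases of the Hpcal1 coding sequence (chromosome 12, 17690856 to 17791933, plus strand) with 56 mismatches and 3 gap bases, an identity of 90.3%. Its aligned stretch does not open with a start codon, and in the Hpcal1 frame it holds 2 stops, the first at codon 31. The first 300 aligned bases are shown with capitals at the 34 that differ from Hpcal1, to show how the changes are spread over the copy.
Gm40853: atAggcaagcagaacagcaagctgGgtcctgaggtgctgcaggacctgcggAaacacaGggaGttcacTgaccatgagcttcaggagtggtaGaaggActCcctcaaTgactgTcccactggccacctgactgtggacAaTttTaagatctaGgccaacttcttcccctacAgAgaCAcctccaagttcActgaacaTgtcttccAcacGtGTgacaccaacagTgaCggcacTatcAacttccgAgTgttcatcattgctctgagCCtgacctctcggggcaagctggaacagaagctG

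RefSeq (GRCm38.p6) places the start of its own Gm40853 model 29051 bases before the first base of the GENCODE gene, and reads in between are not in the count given here. No alignment of 50 or more bases was found between Gm40853 and the other 3 genes. How far a read can be told from its copies differs between the members. Of all stretches of 50 bases in the exons of Gm49379, 5.93% also occur without a mismatch in a transcript of another gene, against 14.6% in Gm21863, 90.2% in Gm40853 and 92.6% in Gm49381. With stretches of 100 bases the shares were 0%, 0%, 64.0% and 80.6%. Among annotated transcripts, stretches of this length are thus mostly distinct in Gm49379 and Gm21863 and mostly shared in Gm40853 and Gm49381, so reads counted on the latter pair are the least certain. Copies in the genome outside GENCODE M21 transcripts were not searched, and the read length was not used. Reads that align to several places are tallied in a row of their own in the files (5.24% to 5.99% of each file). Whether they were also counted on genes depends on a counting setting that is not given in the sources used here.

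In WT cells the 4 genes together had 389 to 569 reads in a library, and in Tet2-KO cells 0 to 4. This is a sum of 4241 reads over 9 WT libraries against 18 over 9 Tet2-KO libraries, at total gene counts of 17931614 to 23069143 reads in a library. All 4 genes were among the 28 of 19910 tested genes (0.141%) that had 3 reads or fewer in each of the Tet2-KO libraries and more than 3 in each of the WT libraries. The opposite pattern was found for 22 genes (0.11%). The members were chosen for this pattern, so the share is given for scale.

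Gm49379 had 138, 128 and 106 reads in the WT libraries at 10 min, 121, 90 and 115 at 20 min, and 129, 130 and 142 at 40 min. In the Tet2-KO libraries it had 0 reads in 8 of 9, with 1 read in replicate 3 at 20 min. The genotypes lay far apart at every labelling time.

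Gm21863, the one member annotated as protein coding, had 75, 110 and 70 reads in WT at 10 min, 104, 63 and 116 at 20 min, and 119, 80 and 96 at 40 min. Its Tet2-KO counts were 0, 0 and 1, then 1, 0 and 2, then 0, 1 and 0. No Tet2-KO library reached a count above 2 and no WT library fell under 63.

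Gm40853 had the most reads, with 185, 234 and 194 in WT at 10 min, 159, 165 and 167 at 20 min, and 186, 148 and 158 at 40 min. Its Tet2-KO counts were 2, 1 and 0, then 0, 0 and 1, then 2, 1 and 0. It was the highest of the members in every WT library.

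Gm49381, the shortest, had 75, 97 and 69 reads in WT at 10 min, 110, 71 and 58 at 20 min, and 61, 73 and 99 at 40 min. Its Tet2-KO counts were 0, 1 and 0, then 0, 0 and 0, then 2, 1 and 1. The highest Tet2-KO count, 2, was again far under the lowest WT count, 58.

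**Figure D1:**
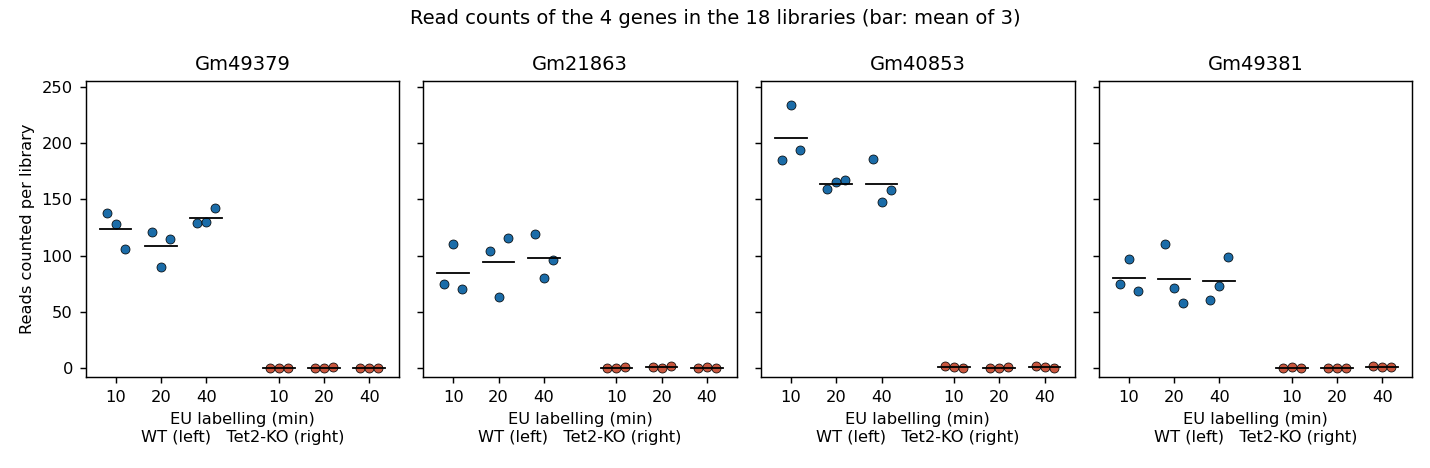
Reads counted on each of the 4 genes in each library (vertical axis, reads) by EU labelling time in min, with WT libraries on the left and Tet2-KO libraries on the right of each panel, and a bar at the mean of 3 libraries. WT counts run from 58 to 234 and Tet2-KO counts from 0 to 2.

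The size of the difference can be given as a ratio of summed counts per ERCC read, with an exact Clopper-Pearson 95% interval that covers counting error only. For the 4 genes together WT was 129-fold higher at 10 min (55.3 to 399), 183-fold at 20 min (78.3 to 565) and 98.9-fold at 40 min (50.03 to 229). These ratios rest on 5, 5 and 8 Tet2-KO reads and were not compared between the times. Of the 5 reads at 20 min, 4 were in Tet2-KO replicate 3, and without that library the ratio at 20 min was 615-fold. For Gm49379, which was at 0 in all Tet2-KO libraries at 10 and at 40 min, WT was at least 18.1-fold and at least 24.8-fold higher against a floor of 3 counts per library. Averaged over the times on the log2 scale, the ratio was 133-fold per ERCC read and 221-fold per gene read, since Tet2-KO libraries had fewer ERCC reads for the same number of gene reads. In pooled cells of a dish, fewer cells that use a gene and less RNA per cell cannot be told apart.

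Among themselves the members kept a similar order in WT. In counts per 1000000 gene reads (CPM, without the spike-in), the mean over 9 WT libraries was 8.36 ± 0.950 (SD) for Gm40853, 5.77 ± 0.712 for Gm49379, 4.36 ± 0.911 for Gm21863 and 3.77 ± 0.985 for Gm49381. As shares of the reads of the 4 genes these were 37.7% ± 4.39, 26.0% ± 2.77, 19.5% ± 3.46 and 16.8% ± 3.18. The share of Gm40853 (31.9% to 44.2%) lay above that of Gm49379 (22.5% to 30.2%) without overlap. The range of the share of Gm21863 (15.9% to 25.4%) overlapped those of Gm49379 and of Gm49381 (12.3% to 22.3%). Within libraries, Gm49379 had more reads than Gm21863 in every WT library but replicate 3 at 20 min, with 115 against 116. The order of Gm21863 and Gm49381 differed from library to library. These differences were not tested. With 18 reads in Tet2-KO, no shares are given there.

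Per kb of exon the order was another. Gm49379 had 34.5 ± 4.26 CPM per kb (SD, n = 9) and Gm49381 29.0 ± 7.58, against 14.4 ± 1.63 for Gm40853 and 12.98 ± 2.71 for Gm21863. The ranges of the first pair, 28.5 to 41.3 and 20.3 to 43.1, overlapped each other and lay above those of the second pair, 12.4 to 18.1 and 9.50 to 16.1. Over its whole span, Gm40853 had 1.49 ± 0.169. Whether introns were counted is not given in the sources used here, so its level per length has this range. The first pair are also the shorter genes, with 167 and 130 exonic bases against 582 and 336. How reads that reach past a short exon were counted is not given. The members also differ in the share of their sequence found in other genes. The levels per kb were corrected for neither.

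Labelling time was not used to choose the members, and in WT cells each of them could be tested for a change with it. EU labelling for longer puts label in more RNA, and per ERCC read most genes rise. The 4 genes together had 1.05 ± 0.227 reads per 1000 ERCC reads at 10 min, 3.28 ± 0.330 at 20 min and 5.48 ± 0.267 at 40 min (SD, n = 3). The groups did not overlap.

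Tested in edgeR by quasi-likelihood, with p adjusted by Benjamini-Hochberg over all 19910 genes, all 4 members rose from 10 to 20 min, where 95.1% of genes rose and 0.0904% fell, and all 4 from 10 to 40 min, where 96.7% rose and 0.01% fell. From 10 to 40 min the log2 fold change was 2.56 (SE 0.22) for Gm49379, 2.64 (SE 0.25) for Gm21863, 2.13 (SE 0.19) for Gm40853 and 2.40 (SE 0.28) for Gm49381, beside a median of 2.26 over all genes. The largest adjusted p of these 4 was 9.85e-17. The members' shares are near the background and their changes lie on both sides of the median.

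From 20 to 40 min all 4 were called higher, where 62.7% of all genes were and 0.236% were lower. The log2 fold changes were 0.96 (SE 0.22) for Gm49379, 0.72 (SE 0.25) for Gm21863, 0.65 (SE 0.19) for Gm40853 and 0.61 (SE 0.27) for Gm49381, with a median of 0.64 over all genes. The adjusted p of Gm49381, 0.0380 in edgeR, was 0.108 in DESeq2 with ERCC size factors, and without WT replicate 2 at 20 min Gm21863 (adjusted p = 0.0663) and Gm49381 (0.0761) were no longer called. Gm49381 was also not called without WT replicate 3 at 20 min (0.305), replicate 2 at 40 min (0.0892) or replicate 3 at 40 min (0.277).

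Scaled to the genes themselves (edgeR with TMM) the rise was gone. In all 3 time contrasts 0 of 4 members were called in either direction, and 0 at an unadjusted p under 0.05, in TMM and in DESeq2 with gene size factors alike. The adjusted p ran from 0.229 to 0.961, beside 11.1% of all genes called higher and 9.24% lower from 10 to 20 min, 16.2% and 12.3% from 20 to 40 min, and 22.8% and 22.0% from 10 to 40 min. In CPM the 4 genes together were at 22.3 ± 2.91, 22.3 ± 2.48 and 22.2 ± 1.61 at 10, 20 and 40 min. In Tet2-KO no member had enough reads for a time contrast.

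**Figure D2:**
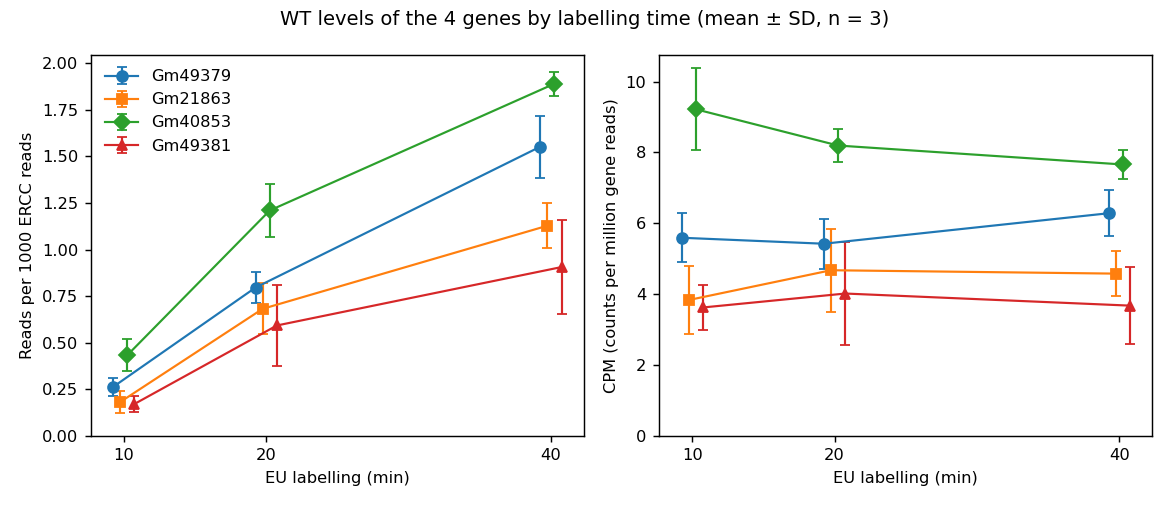
WT levels of the 4 genes (mean ± SD, n = 3) against EU labelling in min, as reads per 1000 ERCC reads on the left and as CPM on the right, with points set slightly apart. Per ERCC read every gene is higher at 40 than at 10 min, and in CPM the means stay between 3.62 and 9.22.

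Counts on the nearest genes were described on both sides of the 4 genes. How far reads can be told from other copies was measured for the 4 genes only, so reads on a neighbour may come from another copy. With that limit, nascent reads were counted in Tet2-KO on genes on both sides of the 4 genes. The nearest tested gene before them, Gm48643 (ENSMUSG00000113411, processed pseudogene, 19865126 to 19865495), lies 16.7 kb from Gm49379 and had 14 to 34 reads in WT, median 21, and 31 to 83 in Tet2-KO, median 49. It rose in Tet2-KO per ERCC read, with a log2 fold change of 2.16 (SE 0.17, edgeR adjusted p = 5.55e-30) as the mean of the 3 times, and by 1.46 with TMM.

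The nearest tested gene after them, Gm9265 (ENSMUSG00000113039, unprocessed pseudogene, 20111164 to 20144845), itself an Hpcal1-like copy, begins 39.2 kb beyond Gm49381. It had 182 to 342 reads in WT, median 273, and 100 to 154 in Tet2-KO, median 145. The counts did not overlap, yet per ERCC read its log2 fold change was -0.05 (SE 0.09, adjusted p = 0.566), and with TMM -0.75 (adjusted p = 2.35e-10). By time it was 0.04 at 10 min (adjusted p = 0.794), -0.57 and called lower at 20 min (0.000692), and 0.36 and called higher at 40 min (0.0328), so the mean covers calls in opposite directions. Its direction of the mean per ERCC read turned to 0.0080 without Tet2-KO replicate 1 at 20 min.

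The 4 annotated genes between the members had next to no reads in either genotype. The microRNA gene Gm22189 and the processed pseudogene Gm48645 were at 0 in all 18 libraries, and Gm48644 and Gm48647 never passed 2 reads. None was tested, so between the members themselves there is no gene whose reads could be compared. Gm48643, Gm9259 and Gm48641 also lie between 19.8 and 20.1 Mb, on the side before the members, and are described as neighbours.

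Gm9259 (ENSMUSG00000113332, unprocessed pseudogene, 19824891 to 19830372), also an Hpcal1-like copy, had 72 to 117 reads in WT, median 101, and 27 to 64 in Tet2-KO, median 44. Per ERCC read it was called lower, with a log2 fold change of -0.33 (SE 0.13, adjusted p = 0.0178) as the mean of the times, and -1.02 with TMM, but without WT replicate 2 at 10 min the adjusted p was 0.0518. By time it was lower at 20 min alone, with -1.14 (adjusted p = 7.94e-06), against 0.16 at 10 min (0.516) and -0.0095 at 40 min (0.973). Gm48641 (ENSMUSG00000114096, processed pseudogene, 19816968 to 19817367), 64.8 kb from Gm49379, had 16, 33 and 32 reads in WT at 10 min, 14, 9 and 20 at 20 min, and 14, 5 and 10 at 40 min. It had 0 in all Tet2-KO libraries. It was the one tested neighbour with 3 reads or fewer in every Tet2-KO library, and Gm9259 and Gm48643 lie between it and the members. Like the members, Gm48641 passed the filter on low counts through the WT libraries. Its call as lower in edgeR thus adds nothing to its counts.

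On the far side, Gm49692 (ENSMUSG00000116736, processed transcript, 20191900 to 20309078) had 1406 to 1852 reads in WT, median 1596, and 2693 to 3416 in Tet2-KO, median 2953. It rose with a log2 fold change of 1.76 (SE 0.05, adjusted p = 3.84e-118), and 1.06 with TMM. Gm49697 (ENSMUSG00000116558, unprocessed pseudogene, 20312515 to 20312640), itself a copy of the Asap2 exon, had 8 to 42 reads in WT, median 13, and 40 to 86 in Tet2-KO, median 51. It rose by 2.62 (SE 0.19, adjusted p = 1.46e-36), and 1.93 with TMM. The highest WT count, 42, overlapped the Tet2-KO range.

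Within 1 Mb on either side lie 67 annotated genes, of which 29 passed the filter on low counts and 28 were at 0 in all libraries. Some of those at 0, such as Gm48667 and Gm9269 within Gm49692, lie inside another annotated gene. How reads on overlapping genes were counted is not given, so a count of 0 there does not show that the gene was silent. As the mean of the 3 times, 20 of the 29 rose in Tet2-KO (background 80.5% of all genes), 4 fell (13.8% of the 29, background 4.15%) and 5 passed in neither direction. Their median log2 fold change was 1.00, beside 0.70 over all genes. With TMM, which sets the median of all genes to 0.00, 15 rose (background 28.6%) and 11 fell (background 27.9%), so the split of directions depends on the scale. By time, 20 rose and 3 fell at 10 min (background 79.0% and 2.1%), 17 rose and 6 fell at 20 min (53.7% and 4.86%), and 19 rose and 3 fell at 40 min (68.2% and 2.84%). The difference between the genotypes itself rose from 10 to 40 min for 1 neighbour and fell for 2, beside 0.552% and 19.3% of all genes. Of the 15 tested genes before the members 11 rose and 4 fell, and of the 14 after them 9 rose and 0 fell, also 0 at an unadjusted p under 0.05 in edgeR and 0 in DESeq2 with ERCC size factors, but 5 with TMM.

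In CPM, 13 of the 29 neighbours were higher in every Tet2-KO library than in any WT library at each time (background 11.8%), and 6 were lower (background 13.9%). The neighbours that fell per ERCC read, besides Gm48641 and Gm9259, were Gm9257 and Gm9255, named here after their values were seen. Gm9257, a copy of the Asap2 exon, had 352 to 615 reads in WT and 47 to 145 in Tet2-KO, a log2 fold change of -1.15 (SE 0.09). Gm9255, an Hpcal1-like copy, had 12 to 35 and 0 to 5, a log2 fold change of -2.92 (SE 0.39). Like Gm48641, Gm9255 passed the filter on low counts through the WT libraries.

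**Figure D3:**
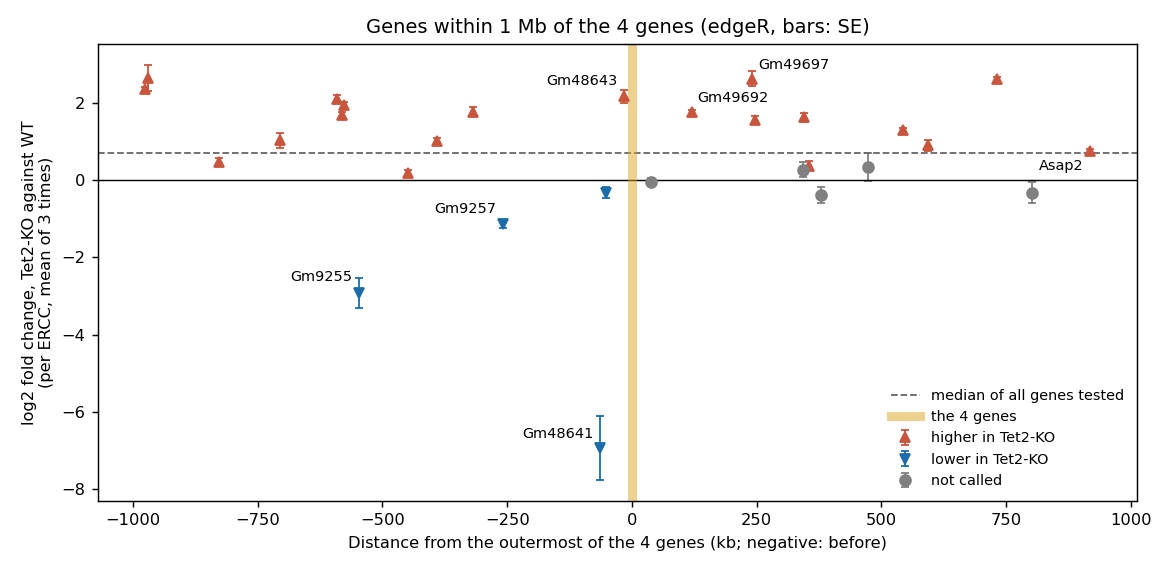
The log2 fold change of Tet2-KO against WT per ERCC read (mean of 3 times, bars SE, edgeR) for the 29 tested genes within 1 Mb, by distance in kb from the outermost of the 4 genes, with genes before them at negative distances. Called genes are triangles, uncalled genes circles, and the dashed line is the median of all genes tested, 0.70. Genes called higher stand on both sides of the members, and the lowest, Gm48641 at 64.8 kb before them, had 0 reads in Tet2-KO.

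The nearest tested protein-coding genes were farther away. Before the members this was 5730507C01Rik (ENSMUSG00000073197, 18514510 to 18535254), which holds a copy of the Asap2 exon and lies 1346.9 kb away, with 771 to 1082 reads in WT, median 958, and 105 to 138 in Tet2-KO, median 123. It fell by 2.08 on the log2 scale (SE 0.08, adjusted p = 4.62e-96), and by 2.78 with TMM. After the members it was Asap2, 918.4 kb away, with 1548 to 2613 reads in WT, median 1979, and 1425 to 2544 in Tet2-KO, median 1854. Its log2 fold change of 0.75 (SE 0.05, adjusted p = 8.75e-36) was near the median of all genes, and with TMM it was 0.06 (adjusted p = 0.0471).

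Hpcal1, the parent-like gene of Gm40853, had 1325 to 1782 reads in WT and 1159 to 1583 in Tet2-KO, with a log2 fold change of 0.72 (SE 0.06) and with TMM 0.03 (adjusted p = 0.456). Both genes that the members are copied from or resemble thus had counts that overlapped between the genotypes.

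Copies of the same sequences elsewhere on chromosome 12 were looked for among the transcripts, at an identity of at least 90% over at least 100 bases. This list was drawn up after the members' values were seen and is described without a test. The Asap2 exon was found in 44 other genes, Asap2 included, and the Hpcal1-like sequence in 49, with 7 genes, Asap2 among them, in both. All lie between 17.9 and 24.3 Mb of chromosome 12. The members thus belong to 2 sets of local copies, 3 of them to the Asap2 set and Gm40853 to the Hpcal1-like set. Of the 29 tested neighbours, 20 are in these sets, Asap2 included, with 12 called higher in Tet2-KO and 3 lower, and of the other 9, 8 were called higher and 1, Gm48641, lower (background 80.5% and 4.15%).

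Of 31 tested genes with the Asap2 exon 19 rose in Tet2-KO, 9 fell and 3 passed in neither direction. Of 22 with the Hpcal1-like sequence 12 rose, 6 fell and 4 passed in neither. Over both, 14 of 46 fell (30.4%, background 4.15%) and 26 rose (background 80.5%), with a median log2 fold change of 0.39 beside 0.70 for all genes. Some copies that fell, such as Gm17330 (0 to 5 Tet2-KO reads) and Gm21297 (0), passed the filter on low counts only through the WT libraries. Gm9229, which rose, passed it only through the Tet2-KO libraries (0 to 5 WT reads). The shares called are thus partly set by the filter and are given for scale. With TMM 23 fell (background 27.9%) and 19 rose (background 28.6%), with a median of -0.30. Copies of the same sequence were thus found moving both ways.

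The copies nearest to the members in pattern were processed pseudogenes with the Asap2 exon. Gm48398 (18610384 to 18610600) had 29 to 74 reads in WT and 0 or 1 in Tet2-KO, and Gm21297 (24252056 to 24252181) had 25 to 57 in WT and 0 in all Tet2-KO libraries. They lie more than 1 Mb from the members on either side. Of the Hpcal1-like copies, Gm19786 came nearest, with 85 to 123 reads in WT and 0 to 5 in Tet2-KO. Gm40853 matched Gm9255, also low in Tet2-KO, at 99.3% identity and Gm19786 at 98.6%, each over 581 bases. It matched Gm4012, not called in either direction, at 95.8% over 600 bases. Gm49381 matched Gm6802, named after its values were seen, at 99.2% over 130 bases. Gm6802 had 246 to 392 reads in WT and 211 to 411 in Tet2-KO, and was called higher with a log2 fold change of 1.00 (SE 0.08). Identity was not set against direction over all copies. Whether reads of Gm40853 and Gm49381 were told apart from those of their closest copies was not tested.

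Others went the opposite way. 1700030C10Rik (ENSMUSG00000099759), with the Asap2 exon, had 1382 to 1814 reads in WT and 4204 to 5759 in Tet2-KO, a log2 fold change of 2.61 (SE 0.05), and Gm40847, which matched both sequences, had 433 to 663 and 1268 to 1724, a log2 fold change of 2.35 (SE 0.06). These copies were named after their values were seen. Of the 28 genes near 0 in Tet2-KO alone, 7 lie in the stretch from 17.9 to 24.3 Mb, which holds 74 tested genes: the 4 members, Gm48398, Gm21297 and Gm48641. The other 21 lie on other chromosomes.

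**Figure D4:**
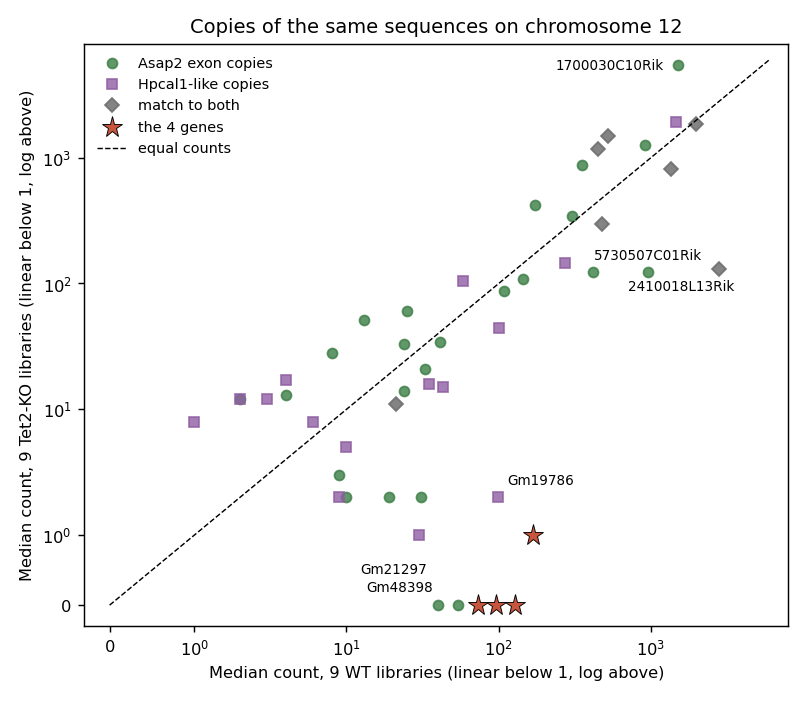
Median counts over 9 WT libraries (horizontal) and 9 Tet2-KO libraries (vertical) for the 46 tested copies of the Asap2 exon or of the Hpcal1-like sequence and for the 4 genes, on axes that are linear below 1 and logarithmic above. The 4 genes lie at a Tet2-KO median of 0 or 1, with Gm48398 and Gm21297 beside them at 0, and other copies lie on both sides of the line of equal counts.

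The genes most like the summed members over the 18 libraries, outside the 1 Mb on either side, were found by Pearson's r of log2(reads per 1000 ERCC reads + 0.01) after the mean of each labelling time was taken off, among 16265 genes. They were Olfr94 (r = 0.994), an olfactory receptor gene on chromosome 17, 2410018L13Rik (0.987), a lincRNA on chromosome 12 that holds both copied sequences, Gm10499 (0.987), a pseudogene on chromosome 17, BC067074 (0.984) on chromosome 13 and Sox11 (0.984), a neural transcription factor gene on chromosome 12. The 18 points share their ERCC totals and fall into the 2 genotypes, so r mostly restates the split that chose the members.

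Of these, Olfr94 had 54 to 175 reads in WT and 0 or 1 in Tet2-KO, and Gm10499 had 521 to 765 and 1 to 7. The others kept more reads in Tet2-KO, with 2459 to 3208 against 105 to 150 for 2410018L13Rik, 316 to 486 against 24 to 65 for Sox11, and 4449 to 5632 against 1072 to 1374 for BC067074.

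Tet2 itself had 13117 to 17092 reads in WT and 9730 to 13011 in Tet2-KO, or 674 ± 62.7 and 587 ± 45.1 CPM. Per ERCC read it was higher in Tet2-KO by 0.54 (log2, SE 0.05, adjusted p = 2.42e-24), and with TMM the log2 fold change was -0.16. Which part of the gene the knockout removes is not given in the sources used here, so the reads over the whole gene do not check the labels. Summed levels of 8 pluripotency genes were 2139 to 2289 CPM in WT and 1492 to 1663 in Tet2-KO, with Sox2 at 3 reads or fewer in every library, and of 7 tested genes 4 were higher per ERCC read (background 80.5%) and 1 lower (background 4.15%). Why Sox2 had so few reads was not tested, and with the counting settings not given its count does not show that Sox2 RNA was absent. Feeder fibroblast genes summed to 6.51 to 23.2 and 6.68 to 14.1, with Lum at 3 reads or fewer in every library, and of 5 tested 3 were higher (background 80.5%) and 1 lower (background 4.15%). Primitive endoderm genes summed to 12.3 to 18.2 and 12.8 to 16.3, ranges that overlap, and 4 of 4 tested were higher per ERCC read (background 80.5%).

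Genes of the 2-cell-like state, which rare cells in such cultures pass through, moved with the members. The 8 listed genes (Zscan4c, Zscan4d, Zscan4f, Zfp352, Tcstv1, Tcstv3, Usp17lc and Gm6763) summed to 18.9 to 30.5 CPM in WT and 2.27 to 4.83 in Tet2-KO, and 5 of 5 tested fell per ERCC read (background 4.15%). Gm6763 had 3 reads or fewer in every library. Their part in the members' difference was not tested.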

How the data were processed

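The deposited files hold raw read counts per gene, 1 file for each library. Per the study's methods, the authors trimmed reads with Trimmomatic 0.39, aligned them with HISAT2 2.2.1 to mm10 with GENCODE M19 and the ERCC sequences, and counted reads per gene with HTSeq 0.12.4. Libraries were made with a stranded kit. The settings of HTSeq for strand, feature, overlap and reads with several alignments are not given in the sources used here. HTSeq's summary rows (20.9% to 24.9% of each file) were left out of library sizes and tests.

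Gene reads were 17931614 to 23069143 and ERCC reads 44162 to 512186 in a library. Gene IDs were matched to GENCODE M21 (54409 of 54446). The 4 members and the lists of neighbours, markers and copies were chosen with earlier results of these data known. Named genes were the members, the genes between them, the 3 nearest tested genes and the nearest tested protein-coding gene on each side, the 5 most alike genes, and Tet2; others are said to be named after their values were seen.

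One model over 6 groups was fitted in edgeR 4.0.16 (R 4.3.3) with the quasi-likelihood test, ERCC totals as library sizes, filterByExpr at a minimum count of 10 (19910 genes) and a threshold of 0.05 on the Benjamini-Hochberg adjusted p. TMM scaling, DESeq2 1.42.0, other filters, a replicate block and leaving out each library were tried. Tested on simulated data for Tet2-KO against WT (19910 genes), it called 187 of 200 genes changed 2-fold, with 8 false calls. The simulation gave all genes the same dispersion and left all but these 200 equal between the genotypes, unlike the real libraries. It thus does not give the error rate of the calls per ERCC read made here. Copies were found with blastn 2.17.0 at an E value of at most 1e-10, and alignments were made in Biopython 1.88. Replicates of a group differed by more than sampling noise (mean chi-square per gene 1.64 to 5.34 over 18 pairs).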

Additional observations from a re-analysis of the deposited data

Results flagged for a closer look

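For 3 neighbours of the Gm cluster, the difference between Tet2-KO and WT changed between 10 and 40 min of labelling, by a test of the interaction in edgeR over all 19910 genes. Such a change was called as rising for 0.552% and as falling for 19.3% of all genes. For Gm49697 the change was -2.45 on the log2 scale (adjusted p = 1.86e-05), from a log2 fold change of 3.82 at 10 min to 1.37 at 40 min. Its WT counts were 12, 10 and 13 at 10 min and 42, 23 and 31 at 40 min, and its Tet2-KO counts were 70, 64 and 86 and then 46, 51 and 40. For Gm5953, 591.0 kb before the members, the change was -0.59 (adjusted p = 0.0184), from 2.55 to 1.97. For Gm9257 the change was 0.70 (adjusted p = 0.0124), from -1.46 to -0.75. The cause of these changes was not tested.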

How the results depend on the processing

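Scaling to the genes, by TMM or by DESeq2 with gene size factors, moved the counts that rest on the ERCC scale. Members higher in WT went from 4 to 0 in all 3 time contrasts under both. Neighbours lower in Tet2-KO as the mean of the times went from 4 to 11 (TMM) and 10 (DESeq2), at 10 min from 3 to 8 under both and at 40 min from 3 to 6 under both, and neighbours higher at 10 min went from 20 to 13 under both. With at least 10 counts in every library, a filter that leaves out Gm48641 and Gm9255, 1 neighbour was lower at 10 min and 1 at 40 min. Within 0.5 Mb, where 16 genes were tested in place of 29, 9 neighbours were higher as the mean, 9 at 10 min, 7 at 20 min and 9 at 40 min. Stretches of 100 bases gave 0%, 0%, 64.0% and 80.6% in place of 5.93%, 14.6%, 90.2% and 92.6% for Gm49379, Gm21863, Gm40853 and Gm49381. Leaving out 1 library at a time gave 2 to 4 members higher from 20 to 40 min and a log2 ratio of WT over Tet2-KO for the 4 genes of 6.87 to 7.64 (main value 7.05).

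Single log2 fold changes that turned sign did so mainly with TMM or with gene size factors in DESeq2. In WT these were Gm49379 from 10 to 20 min (-0.019 and -0.023), Gm40853 from 10 to 20 min (-0.15 and -0.15), from 20 to 40 min (-0.020 and -0.020) and from 10 to 40 min (-0.17 and -0.17), and Gm49381 from 20 to 40 min (-0.053 and -0.052). For Tet2-KO against WT they were Tet2 (-0.16 and -0.16), Gm40849 (-0.24 and -0.24), Gm5784 (-0.51 and -0.51), AC163633.1 (-0.42 and -0.43), the Gm10479 copy ENSMUSG00000116606 (-0.32 and -0.33) and Gm4012 (-0.36 and -0.37). Leaving out 1 library at a time gave -0.095 to 0.0080 for Gm9265, the highest without Tet2-KO replicate 1 at 20 min. Gm49698, not called in the main values, was called lower without WT replicate 1 or 3 at 10 min or Tet2-KO replicate 2 at 40 min, and Gm5784 was not called without Tet2-KO replicate 1 at 10 min or replicate 2 at 20 min.

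Whether equal replicate numbers mark paired dishes is not given in the sources used here. Their libraries showed no clear shared deviation, which does not settle it. The deviations of same-numbered libraries from their group means had a median correlation of 0.00587 (-0.218 to 0.184 over 45 pairs). With the replicate block 4 members were higher in each time contrast, and 20 neighbours were higher and 4 lower, as without it. With 18 reads in all Tet2-KO libraries, depth sets no upper end to the members' ratios that is better than the counting intervals given, and for Gm40853 and Gm49381 reads shared with other copies limit what a count means.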
